A study of Mus musculus with 27 samples.

Results

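The comparison described here sets mice that carried the P301S tau transgene and had lost Cgas (labelled P301S tau:+ cGAS:-/-) against mice that carried the transgene and had both copies of Cgas (labelled P301S tau:+ cGAS:+/+). The 2 groups are called P301S Cgas-/- and P301S Cgas+/+ below, and each held 6 libraries, 3 from males and 3 from females, of the 27 single-nucleus libraries in the series. Libraries were put into groups by their labels, with no measured value in the rule. After filtering they held 102719 of the 221281 nuclei of the series, and 94648 remained once likely doublets were taken out, 51297 in P301S Cgas+/+ and 43351 in P301S Cgas-/-.

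cGAS is the sensor that binds DNA in the cytosol and makes the second messenger cGAMP, which activates the adaptor STING, the kinase TBK1 and the transcription factor IRF3 and thereby type I interferon. In the brain the pathway is best known from microglia, and the interferon made there can act on other cells through the receptor chains Ifnar1 and Ifnar2. MEF2C is a transcription factor of neurons that acts on genes of synapses and excitability. The study reported changes in the interferon programme of microglia and the MEF2C programme of neurons when Cgas was lost in mice with tau pathology.

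Each library came from the hippocampus of 1 mouse, and nuclei were sorted by their DAPI signal before droplet capture. The transgene encodes human tau with the P301S mutation and is driven by the mouse prion promoter, Cgas is missing from the germline, and the groups came as littermates from one cross, at an age given both as 8 to 9 and as 9 to 10 months. The other 4 groups of the series were P301S Cgas+/- (6 libraries), and mice without the transgene that were Cgas+/+ (5), Cgas+/- (2) or Cgas-/- (2). They gave background levels, P301S Cgas+/- and Cgas+/+ helped to set the spread in the gene tests, and all 4 entered the comparison with mice without the transgene. Which libraries shared a litter or a day of preparation is not stated, so the spread measured is the spread between these mice and their preparations together.

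Nuclei were named from marker genes, and UMIs were then summed per library within each class. In the 12 libraries this gave 5998 microglia-like, 10926 astrocyte-like, 23989 oligodendrocyte-like, 3016 oligodendrocyte precursor-like, 5470 inhibitory neuron-like and 33938 excitatory neuron-like nuclei. The excitatory nuclei were split again into 7686 dentate granule-like, 6001 CA1-like, 1235 CA3-like, 159 CA2-like, 8204 cortical-like and 632 subicular-like nuclei, while 10021 excitatory nuclei lay in clusters left unnamed. In the 8 classes with markers of their own that were tested, every marker of the class was detected and passed the expression filter. CA2-like and CA3-like nuclei were too few to test, since only 1 and 3 P301S Cgas-/- libraries held at least 20 of them.

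The 12 libraries held 49254954 to 79484316 UMIs each, and 5840 to 12572 kept nuclei. The median nucleus of a library held 2025.5 UMIs at the lowest, 3707.5 at the median and 4259 at the highest in P301S Cgas+/+, against 3772, 4324.5 and 7075.5 in P301S Cgas-/-. P301S Cgas+/+ replicate 3 was the shallowest and stood apart, since 49.3% of its kept nuclei were unnamed, nearly all in a cluster of 6939 nuclei that was left unnamed because 61.7% of it came from 1 library. Pairs of the 12 libraries shared 13 to 47 cell barcodes. The headers of the matrices name 2 versions of the counting software, and each group held 2 libraries of the older and 4 of the newer version.

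Summed UMIs per library and class ran from 408301 to 1896714 in microglia, 563248 to 11292232 in dentate granule nuclei and 14235135 to 37184967 in all excitatory nuclei. Levels are given as CPM, the UMIs of a gene scaled to the same total of UMIs of the class in every library, and for each group of 6 the lowest, median and highest library are given in that order. Fold changes are P301S Cgas-/- over P301S Cgas+/+ on the log2 scale, ± SE, from edgeR's quasi-likelihood test with sex as a covariate, and a gene was called at a Benjamini-Hochberg adjusted p under 0.05 over all genes tested in the class.

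Counts of Cgas do not show a loss in microglia, where it was highest. Cgas (ENSMUSG00000032344, listed under its older symbol Mb21d1, chromosome 9, 78430526 to 78443237 on the minus strand of GRCm38) was at 40.1, 52.6 and 58.4 CPM in P301S Cgas-/- microglia, from 19 to 60 UMIs a library. In P301S Cgas+/+ microglia it was at 26.4, 36.6 and 55.2 CPM, from 18 to 52 UMIs. The libraries labelled as lacking Cgas were therefore not lower there, and 2 of them lay above every P301S Cgas+/+ library (difference 0.47 on the log2 scale, exact two-sided permutation test p = 0.0411, adjusted p = 0.150 over 8 gene and class pairs). In microglia without the transgene it was at 21.5 and 33.04 CPM in the 2 Cgas-/- libraries and 32.2, 35.3 and 39.0 CPM in Cgas+/+. In all excitatory nuclei, at a far lower level, it was at 0.753, 0.972 and 1.36 CPM in P301S Cgas-/- (163 UMIs in all) and 1.0, 1.63 and 2.25 CPM in P301S Cgas+/+ (232 UMIs), and without the transgene at 1.53 and 2.07 CPM in Cgas-/- and 1.16, 1.30 and 1.69 CPM in Cgas+/+. The medians were also lower in P301S Cgas-/- dentate granule (1.32 against 1.68 CPM), CA1 (1.71 against 1.92 CPM) and oligodendrocyte sums (0.686 against 0.985 CPM), and higher in oligodendrocyte precursors (1.23 against 0.488 CPM), inhibitory neurons (0.609 against 0.364 CPM) and cortical nuclei (0.603 against 0.166 CPM). The counts come from 3′ tags, and a tag outside the deleted stretch checks nothing; where the deleted stretch lies is not given in the sources used here.

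The transgene was read only through mouse genes, since the counts were made on the mouse genome. Counts of Prnp, the prion gene whose promoter drives the transgene, lay near the floor, so few UMIs stand behind each value. Its medians were higher in excitatory nuclei of tau mice, at 0.127, 0.224 and 0.484 CPM in P301S Cgas-/- and 0.179, 0.267 and 0.421 CPM in P301S Cgas+/+, next to 0.0247, 0.103 and 0.145 CPM in Cgas+/+ mice without the transgene. P301S Cgas+/+ did not overlap with Cgas+/+ mice without the transgene, and the lowest of P301S Cgas-/- did. The 2 Cgas-/- libraries without the transgene stood at 0.0393 and 0.296 CPM, the higher of them within the range of the tau mice. Mapt, the mouse tau gene, was at 2116, 2807 and 2890 CPM in oligodendrocytes of P301S Cgas-/- and 2607, 2674 and 3254 CPM in P301S Cgas+/+, next to 1983, 2377 and 2612 CPM without the transgene. In hippocampal excitatory nuclei Mapt stood at 388, 486 and 525 CPM, 406, 490.4 and 561 CPM, and 427, 463 and 503 CPM in the same 3 groups, where the ranges overlap. These differences were not tested, and the direction of the deletion rests on the labels alone.

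No gene passed the adjusted threshold between P301S Cgas-/- and P301S Cgas+/+ in any of the 10 classes tested with edgeR. Genes with an unadjusted p under 0.05 made up 2.67% of 9322 genes in microglia, 4.84% of 13172 in astrocytes, 4.4% of 12561 in oligodendrocytes, 3.98% of 8897 in oligodendrocyte precursors and 5.88% of 12824 in inhibitory neurons. Among excitatory nuclei they made up 3.25% of 13185 genes in dentate granule nuclei, 1.98% of 12711 in CA1, 3.64% of 15107 in the hippocampal subfields summed and 5.9% of 13871 in cortical nuclei. When all excitatory nuclei were summed without regard to subfield, the share was 13.5% of 17219 genes, and the smallest adjusted p was 0.212. With the percentage of cortical-like nuclei in each library as a further covariate, described next, the share was 4.63% in all excitatory nuclei. With that covariate it was 5.23% in microglia, 5.29% in astrocytes, 6.47% in oligodendrocytes, 4.87% in their precursors and 3.13% in inhibitory neurons, and 5.04% in dentate granule, 5.3% in CA1, 7.34% in hippocampal and 3.64% in cortical nuclei. The cortical share had the higher median in P301S Cgas-/-, so a fit with it can also take out part of a deletion effect. The share and the deletion cannot be told apart in these fits. DESeq2, run on the same sums with 23981 to 26343 genes in the classes where it called any, called 1 gene in astrocytes (0.00417%), 9 in inhibitory neurons (0.0372%) and 86 in all excitatory nuclei (0.326%).

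**Figure D1:**
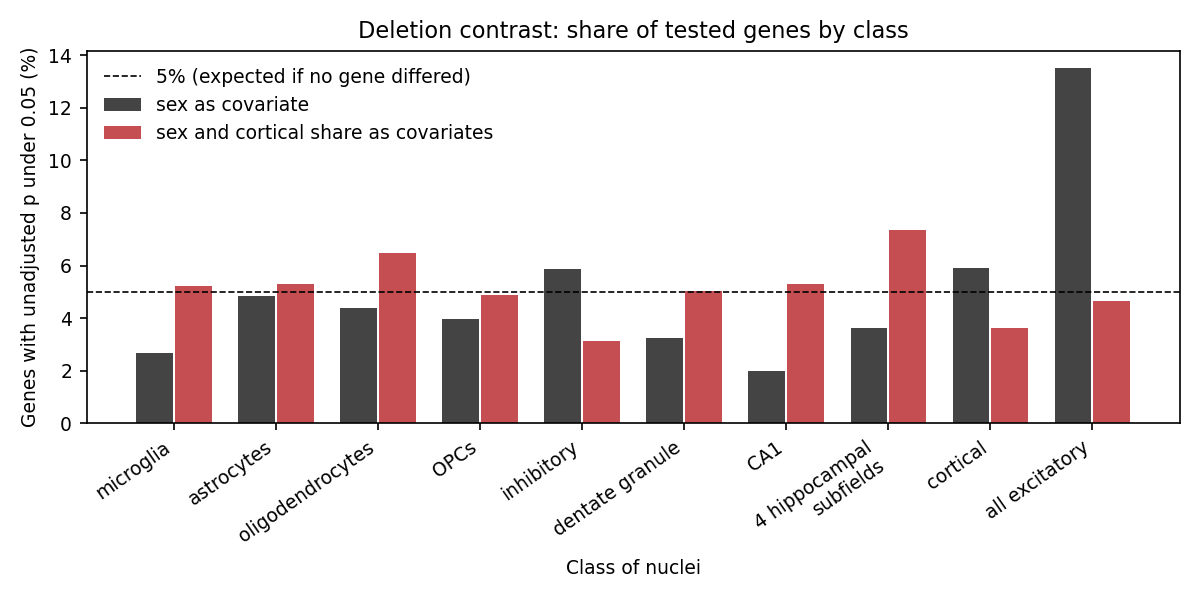
Percent of genes tested with an unadjusted p under 0.05 (y axis) in each of the 10 classes (x axis), as dark bars for the fit with sex as a covariate and red bars for the fit with the cortical share of each library as a further covariate; the dashed line is at 5%. All excitatory nuclei lie at 13.5% with sex alone and at 4.63% with both covariates, while the other classes lie between 1.98% and 7.34% in both fits.

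Of all the shares of nuclei, that of cortical-like nuclei differed most between the 2 groups. Cortical-like nuclei, whose markers Rorb, Cux2 and Tshz2 belong to neurons of the neocortex, made up 22.6%, 30.9% and 45.4% of the excitatory nuclei in P301S Cgas-/- and 2.68%, 8.73% and 39.2% in P301S Cgas+/+. The difference of the means was 18.3 percentage points (exact two-sided permutation test p = 0.0281, adjusted p = 0.258 over 23 shares), so it did not pass after adjustment. By library, P301S Cgas+/+ replicates 1 to 6 stood at 39.2%, 12.1%, 5.40%, 2.68%, 4.18% and 23.6%, and P301S Cgas-/- replicates 1 to 6 at 22.6%, 45.4%, 31.1%, 24.1%, 30.7% and 43.1%. Replicates 2 to 5 of P301S Cgas+/+ lay below every P301S Cgas-/- library, and replicates 1 and 6 lay within their range. The median was 33.8% in P301S Cgas+/- and 16% in Cgas+/+ mice without the transgene.

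The hippocampal subfields had lower medians in P301S Cgas-/-. CA3-like nuclei made up 0.0253%, 0.536% and 3.07% of the excitatory nuclei in P301S Cgas-/- and 0%, 5.73% and 16.7% in P301S Cgas+/+ (exact p = 0.0303, adjusted p = 0.258). Dentate granule-like nuclei made up 3.11%, 18.6% and 26% against 4.74%, 32.5% and 58.3% (exact p = 0.123), and CA1-like nuclei 5.36%, 12% and 25.4% against 5.79%, 23.8% and 38.9% (exact p = 0.104). The ranges overlapped in each of these subfields. Excitatory nuclei of unnamed clusters were at 22%, 36.7% and 44.8% against 3.59%, 24.1% and 42.2% (exact p = 0.0974).

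**Figure D2:**
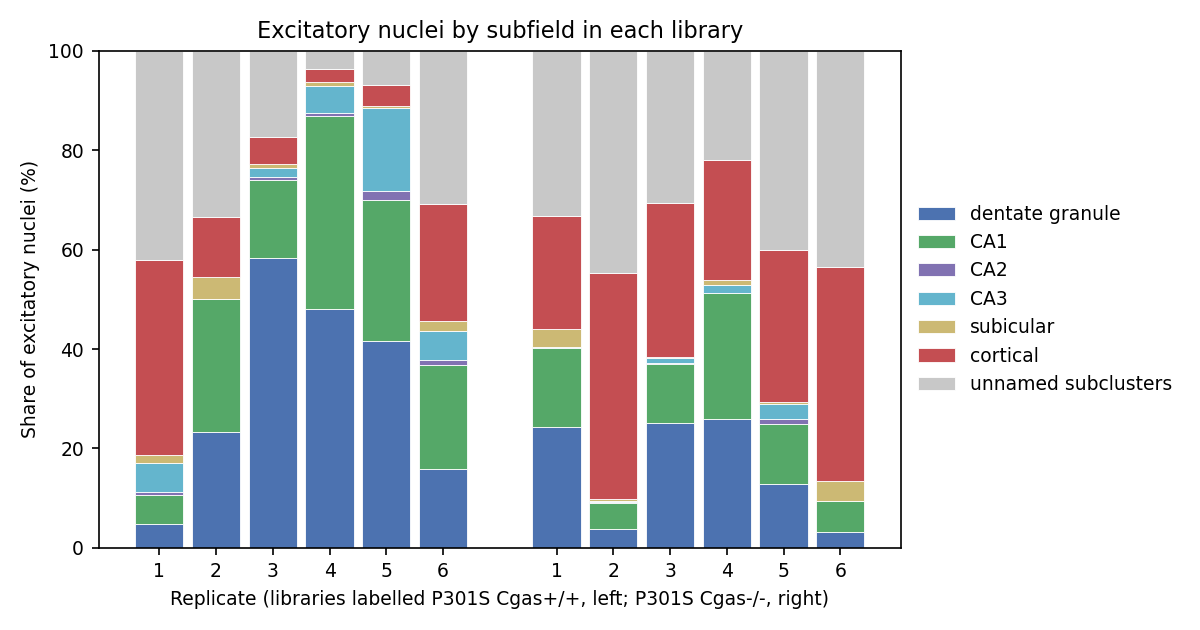
Percent of the excitatory nuclei of each library (y axis) by subfield, as 1 stacked bar per library, with the 6 libraries of P301S Cgas+/+ on the left and the 6 of P301S Cgas-/- on the right (x axis, replicate number) and nuclei of no subfield in grey. The red cortical part runs from 2.68% to 39.2% in P301S Cgas+/+ and from 22.6% to 45.4% in P301S Cgas-/-.

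Microglia made up 3.71%, 5.76% and 9.0% of the kept nuclei in P301S Cgas-/- and 3.75%, 6.53% and 9.59% in P301S Cgas+/+ (exact p = 0.580). Excitatory nuclei made up 33.1%, 39.9% and 52.8% against 16.8%, 34.5% and 40.4% (exact p = 0.119). Choroid plexus-like nuclei were at 0%, 0.0748% and 0.601% against 0%, 1.25% and 5.21% (exact p = 0.113). Of the 23 shares tested, none had an adjusted p under 0.258. These shares count nuclei kept. A cell type lost from the tissue and one left out in dissection, sorting or filtering therefore cannot be told apart. The limit of 4000 genes took out a median of 11.9% of a library's barcodes in P301S Cgas-/- and 6.58% in P301S Cgas+/+, with overlapping ranges. The part of this filter in the lower CA3-like and CA1-like medians is not given here.

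Among excitatory nuclei Mef2c had its largest fold change where the subfields were pooled and smaller ones within the dentate granule, CA1 and cortical nuclei. The pooled sum also held nuclei of unnamed excitatory clusters, which lie in none of these class sums. Their median share of excitatory nuclei was 36.7% in P301S Cgas-/- and 24.1% in P301S Cgas+/+. The cortical fold change, given below, had an error wide enough to hold the pooled one. In all excitatory nuclei summed Mef2c was at 252, 464 and 773 CPM in P301S Cgas-/- and 191, 279 and 532 CPM in P301S Cgas+/+. The fold change was 0.71 ± 0.247 (edgeR, unadjusted p = 0.00861, adjusted p = 0.234). Of the P301S Cgas-/- libraries 2 lay above every P301S Cgas+/+ library and the rest overlapped (exact two-sided permutation test p = 0.0433, adjusted p = 0.150 over 8 gene and class pairs). With the cortical share of each library as a covariate the fold change was 0.24 (edgeR, adjusted p = 0.986). That share had the higher median in P301S Cgas-/-, so in this fit it and the deletion cannot be told apart. Giving dentate granule, CA1 and cortical nuclei the same weight in every library put Mef2c at 177, 347 and 591 CPM against 175, 301.3 and 441 (difference 0.29, exact p = 0.368), a measure added after the data were seen.

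Within dentate granule nuclei Mef2c was at 307, 385 and 978 CPM in P301S Cgas-/- and 322, 353 and 551 CPM in P301S Cgas+/+, a fold change of 0.11 ± 0.156 (edgeR, adjusted p = 1.0). The groups overlapped, with P301S Cgas-/- replicate 6 just below and replicate 2 far above every P301S Cgas+/+ library, and the 978 CPM of replicate 2 came from only 89 dentate granule nuclei. In that library the 16 genes of the cortical neuron list summed to 2058 CPM in dentate granule nuclei, against 463 CPM at the lowest and 527 CPM at the median of its group, and the dentate granule markers summed to 2045 CPM against a median of 6231 CPM. P301S Cgas+/+ replicate 1, the highest of its group for Mef2c, was also the highest of its group for the cortical genes there, at 1092 CPM. The part of cortical nuclei or RNA in these 2 values was not tested.

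Within CA1 nuclei Mef2c was at 35.4, 44.1 and 186 CPM in P301S Cgas-/- and 32.8, 61.2 and 265 CPM in P301S Cgas+/+ (fold change -0.20 ± 0.526, edgeR, adjusted p = 1.0). P301S Cgas-/- replicates 2 (106 CPM) and 6 and P301S Cgas+/+ replicates 1 and 6 (125 CPM) were well above the medians, and leaving out P301S Cgas+/+ replicate 1 turned the fold change to 0.21. In the hippocampal subfields summed Mef2c was at 174, 205 and 366 CPM against 162, 187 and 242 CPM (0.17 ± 0.169, edgeR, adjusted p = 1.0; exact p = 0.344).

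Within cortical nuclei Mef2c ranged widely in both groups, at 106, 645 and 1022 CPM in P301S Cgas-/- and 99.8, 415 and 672 CPM in P301S Cgas+/+ (0.50 ± 0.55, edgeR, adjusted p = 1.0; exact p = 0.450). P301S Cgas-/- replicate 4 and P301S Cgas+/+ replicate 2 were the low ones, and the other 5 libraries of each group overlapped. In inhibitory neurons the spread was much narrower, with Mef2c at 618, 671 and 781 CPM against 539, 613 and 712 CPM (0.13 ± 0.0922, edgeR, adjusted p = 0.972). Of the P301S Cgas-/- libraries 2 lay above every P301S Cgas+/+ library (exact p = 0.0563, adjusted p = 0.150).

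The other groups differed less in dentate granule nuclei than in the pooled sum or in cortical and CA1 nuclei. Mef2c had medians of 494 CPM in all excitatory nuclei of P301S Cgas+/-, 312 CPM in those of Cgas+/+ mice without the transgene and 205 CPM in those of Cgas-/- mice without it. In dentate granule nuclei the medians of the same 3 groups were 381, 350.3 and 369 CPM. In CA1 nuclei they were 71.4, 104 and 46.8 CPM. In cortical nuclei they were 676, 236 and 415 CPM, the last from 2 libraries at 128 and 701 CPM.

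**Figure D3:**
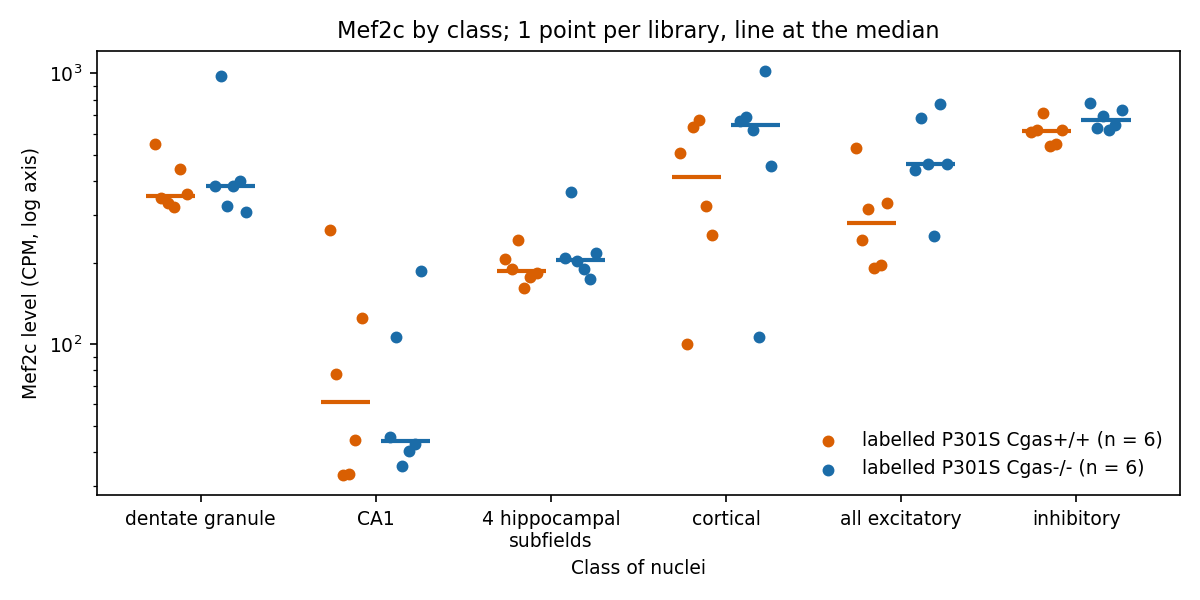
Mef2c in CPM of the class (y axis, logarithmic) by class of neuron (x axis), 1 point per library, 6 P301S Cgas+/+ and 6 P301S Cgas-/- in each class, with a line at the group median. The medians of P301S Cgas+/+ and P301S Cgas-/- are 279 and 464 CPM in all excitatory nuclei and 415 and 645 CPM in cortical nuclei. They are 353 and 385 CPM in dentate granule nuclei and 61.2 and 44.1 CPM in CA1 nuclei.

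Other neuronal genes that the study named had larger fold changes in the pooled sum than within cortical nuclei. Satb1, a chromatin organiser, was at 122, 154 and 197 CPM in all excitatory nuclei of P301S Cgas-/- and 46.5, 99.6 and 157 CPM in those of P301S Cgas+/+ (0.71 ± 0.217, edgeR, adjusted p = 0.212), and its fold changes were 0.34 ± 0.271 in dentate granule, 0.28 ± 0.226 in CA1 and 0.13 ± 0.135 in cortical nuclei. Dpp10, an auxiliary subunit of A-type potassium channels, was at 517, 1022 and 1379 CPM against 133, 406 and 1178 CPM (1.0 ± 0.378, edgeR, adjusted p = 0.258), while its fold change was -0.05 ± 0.166 in cortical and -0.65 ± 0.852 in CA1 nuclei. Nrg1, a ligand of the ErbB4 receptor, had a fold change of 0.54 ± 0.239 in all excitatory nuclei (edgeR, adjusted p = 0.325) and of -0.12 ± 0.246 in cortical nuclei. The protocadherins Pcdh7 and Pcdh15 had fold changes of 0.47 ± 0.237 and 0.62 ± 0.341 in all excitatory nuclei and of 0.33 ± 0.357 and -0.10 ± 0.199 in cortical nuclei.

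Of the 19 excitatory genes the study named, a list chosen on these same samples and so no independent evidence of its direction, 16 had fold changes above 0 in all excitatory nuclei, with a median of 0.40, where 49.1% of all genes tested were above 0. In dentate granule nuclei 14 of the 19 were above 0 with a median of 0.13 (50.5% of all genes above 0), and in CA1 6 with a median of -0.11 (51.7%). In the hippocampal subfields summed 13 were above 0 with a median of 0.06 (50.8%), and in cortical nuclei 12 with a median of 0.06 (52.9%). None of the 19 reached an unadjusted p under 0.05 in dentate granule, CA1 or cortical nuclei, and 2 did in the hippocampal subfields summed, Satb1 (0.32 ± 0.148) and Tenm3 (0.59 ± 0.272), an adhesion molecule that guides hippocampal wiring. Of all genes 3.25% reached that p in dentate granule nuclei, 1.98% in CA1, 5.9% in cortical nuclei and 3.64% in the subfields summed.

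The genes that the study took as MEF2C targets in excitatory neurons were picked from its lists of changed genes on these same libraries and so are no independent evidence, and they lay on both sides of 0. In all excitatory nuclei 51 (22.3% of those tested) were higher and 71 (31%) lower at an unadjusted p under 0.05, with a median fold change of 0.09, where 6.15% of all genes tested were higher and 7.35% lower at that p. In dentate granule nuclei 5 (2.19%) were higher and 1 (0.439%) lower, with a median of -0.07, beside 1.62% of all genes higher and 1.64% lower. In CA1 nuclei 0 were higher and 2 (0.881%) lower, with a median of -0.08, beside 1.16% and 0.826%. In the hippocampal subfields summed 4 (1.75%) were higher and 5 (2.18%) lower, with a median of -0.06, beside 1.54% and 2.1%. In cortical nuclei 6 (2.62%) were higher and 18 (7.86%) lower, with a median of 0.02, beside 2.64% and 3.27% of all genes.

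Receptor, channel and synapse genes had medians between -0.09 and 0.04 in the excitatory subfields. For comparison, 50.5% of all genes were above 0 in dentate granule nuclei, 51.7% in CA1 and 52.9% in cortical nuclei, and 3.25%, 1.98% and 5.9% reached an unadjusted p under 0.05 (in cortical nuclei 2.64% higher and 3.27% lower). Of 21 glutamate receptor genes none reached an unadjusted p under 0.05 in dentate granule nuclei (7 above 0, median -0.06) or CA1 (6 above 0, median -0.09), and of 22 in cortical nuclei 1 was lower (8 above 0, median -0.09). Of 25 synapse scaffold and adhesion genes none reached that p in dentate granule or CA1 nuclei (median -0.06 in both) and 1 was higher in cortical nuclei (median -0.03). Of 33 potassium and calcium channel genes none reached it in dentate granule (median -0.06) or CA1 nuclei (median -0.04), and 2 were lower in cortical nuclei (median 0.03). Of 14 GABA receptor genes 1 was lower in dentate granule nuclei, none reached that p in CA1, and 1 was higher and 1 lower in cortical nuclei. In all excitatory nuclei pooled, where 13.5% of all genes reached that p, 10 of the 22 glutamate receptor genes did, 4 higher and 6 lower. The 8 genes of the MEF2 family and the class IIa histone deacetylases that bind it had medians of -0.04 in dentate granule, -0.02 in CA1 and 0.05 in cortical nuclei.

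The pooled excitatory sum carried cortical genes, and Rorb and Rspo1 are among the markers that named the cortical-like nuclei. Their levels here are therefore no evidence beyond the share of these nuclei. Rorb, a transcription factor of cortical layer 4, was at 39.1, 81.0 and 145 CPM in P301S Cgas-/- and 11.5, 32.5 and 85.9 CPM in P301S Cgas+/+ (1.33 ± 0.447, edgeR, adjusted p = 0.226). Rspo1, a secreted Wnt agonist that is also a cortical marker, was at 0.467, 4.63 and 9.66 CPM against 0.138, 0.584 and 2.07 CPM (2.59 ± 0.755, edgeR, adjusted p = 0.212). Of the 16 genes of the cortical neuron list, 15 had fold changes above 0 in all excitatory nuclei (49.1% of all genes), 6 of them higher at an unadjusted p under 0.05 (6.15% of all genes), and their summed level was 3518, 3845 and 5564 CPM against 1189, 2759 and 4325 CPM. Within cortical nuclei 8 of the 16 were above 0 (52.9% of all genes). Of the 86 genes that DESeq2 called in all excitatory nuclei 51 were higher and 35 lower, and it called none in dentate granule, CA1, hippocampal or cortical nuclei.

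The genes of smallest p in the pooled sum did not overlap between the groups. Galnt3, a glycosyltransferase, was at 5.72, 7.89 and 12.2 CPM in P301S Cgas-/- against 13.9, 17.6 and 25.5 CPM (-1.20 ± 0.244), and Plpp4, a lipid phosphatase, at 4.83, 10.2 and 13.5 CPM against 15.8, 20.5 and 26.9 CPM (-1.29 ± 0.270). Ppm1m, a protein phosphatase, was at 2.87, 4.05 and 5.63 CPM against 0.881, 1.97 and 2.83 CPM (1.05 ± 0.214). The edgeR adjusted p was 0.212 for each of these 3, and being the most extreme of 17219 genes they had to stand apart. Genes named below for their small p in other classes were picked in the same way, so their lack of overlap is no further evidence. The share of all genes tested that do not overlap is not given here.

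Within CA1 nuclei the genes of smallest p were low in counts. Pld5, a member of the phospholipase D family, was at 0.326, 1.21 and 1.55 CPM in P301S Cgas-/- and 2.04, 2.72 and 3.22 CPM in P301S Cgas+/+ (-1.33 ± 0.297, edgeR, adjusted p = 1.0). Mta2, a subunit of the NuRD chromatin remodelling complex, was at 6.21, 8.85 and 11.7 CPM against 3.72, 5.78 and 7.38 CPM (0.62 ± 0.163). In the hippocampal subfields summed Mta2 was at 8.61, 9.35 and 11 CPM against 5.82, 7.12 and 8.10 CPM (0.45 ± 0.102, edgeR, adjusted p = 1.0), with no overlap. Grik4, a kainate receptor subunit that marks CA3, was at 197, 327 and 441 CPM against 284, 584 and 976 CPM there (-0.86 ± 0.314), beside a summed level of the 9 CA3 markers of 585, 735 and 1137 CPM against 727, 1226 and 1926 CPM.

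Within dentate granule nuclei Selenok, a selenoprotein of the endoplasmic reticulum, was at 8.10, 10.2 and 14.2 CPM in P301S Cgas-/- and 4.82, 5.79 and 8.11 CPM in P301S Cgas+/+ (0.66 ± 0.171, edgeR, adjusted p = 1.0). Kcnj13, an inward rectifier potassium channel also found in the choroid plexus, was at 0, 0.568 and 1.23 CPM against 1.33, 2.42 and 5.82 CPM (-1.93 ± 0.505), with no overlap. No difference of the deletion effect between CA1 and dentate granule nuclei was called for any of 13555 genes (limma on the difference within each mouse, 0 called, 343 genes or 2.53% at an unadjusted p under 0.05). Leaving out 1 library at a time, the genes at that p ranged from 282 (without P301S Cgas+/+ replicate 6) to 569 (without P301S Cgas-/- replicate 6). In this test the smallest p belonged to the transcript Gm37184, at a difference of 1.23 ± 0.268 (limma, adjusted p = 1.0).

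In microglia the interferon genes were spread over wide and overlapping ranges in both groups. The 69 interferon-stimulated genes summed to 2313, 3735 and 5961 CPM in P301S Cgas-/- and 1642, 4271 and 6594 CPM in P301S Cgas+/+. Cgas+/+ mice without the transgene stood at 1494, 1669.6 and 2072 CPM (5 libraries), below every P301S Cgas-/- library, and P301S Cgas+/- had a median of 3174 CPM. Of the 54 genes tested none reached an unadjusted p under 0.05 (0 called by edgeR and by DESeq2), 13 had fold changes above 0 and 41 below, and the median was -0.16. Over all genes tested in microglia 48.1% were above 0 and 2.67% reached that p.

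Individual interferon genes overlapped between the groups or had fold changes that did not pass the test. Trim30a, an interferon-induced regulator of inflammatory signalling, was at 215, 329 and 478 CPM in P301S Cgas-/- and 205, 374 and 534 CPM in P301S Cgas+/+ (-0.16 ± 0.290), and Rnf213, a large ubiquitin ligase, at 198, 262 and 430.5 CPM against 109.9, 302 and 520.0 CPM (-0.13 ± 0.326). Ddx60 (-0.20 ± 0.351), Parp14 (-0.28 ± 0.306) and Trim30d (-0.16 ± 0.212) lay in the same range. The ends of the list were Ifit2 at -0.93 ± 0.560 and Bst2 at 0.43 ± 0.373. Outside microglia the list was lower in level, summing to 563, 1195 and 1864 CPM in P301S Cgas-/- astrocytes and 607, 1256 and 2357 CPM in P301S Cgas+/+ astrocytes, where 13 of 48 genes tested were above 0 and none reached an unadjusted p under 0.05 (median -0.18). Of all genes in astrocytes 50.5% were above 0 and 4.84% reached that p.

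**Figure D4:**
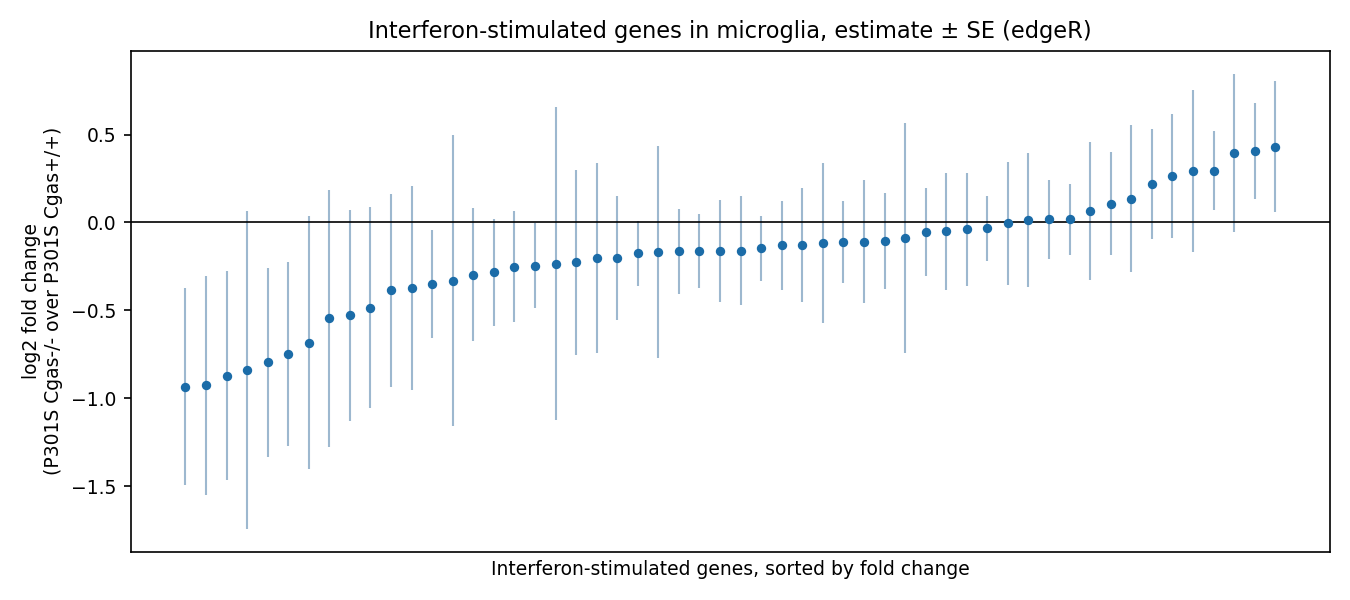
Log2 fold change, P301S Cgas-/- over P301S Cgas+/+ (y axis), of the 54 interferon-stimulated genes tested in microglia (x axis, sorted by fold change), with vertical bars of 1 SE from edgeR and a line at 0. The values run from -0.93 to 0.43, 41 of them below 0, and no gene reached an unadjusted p under 0.05, where 2.67% of all genes did.

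The genes of the pathway itself overlapped in level between the groups. Tmem173, the older symbol of Sting1, which encodes STING, was at 15.2, 29.8 and 44.1 CPM in P301S Cgas-/- microglia and 18.2, 31.2 and 40.2 CPM in P301S Cgas+/+ microglia (-0.05 ± 0.251, edgeR, adjusted p = 1.0; exact p = 0.844). Tbk1 had a fold change of 0.00 ± 0.112 and Irf3 of 0.13 ± 0.226. Of the 17 pathway genes tested, 2 reached an unadjusted p under 0.05, both higher, where 2.67% of all genes reached that p and 1.12% did so in the higher direction: Cgas itself (0.42 ± 0.182) and the interferon receptor chain Ifnar2. Ifnar2 was at 164, 218 and 253 CPM against 79.5, 153 and 219 CPM (0.53 ± 0.180, edgeR, adjusted p = 1.0), with 3 P301S Cgas-/- libraries above every P301S Cgas+/+ library.

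The genes of the disease-associated state, which microglia take up around pathology, varied several-fold between mice of one group. The 26 genes summed to 2278, 3237 and 7677 CPM in P301S Cgas-/- and 1302, 3367 and 9151 CPM in P301S Cgas+/+, against 1246, 1368 and 1667 CPM in Cgas+/+ mice without the transgene. Of 25 tested, 13 had fold changes above 0, the median was 0.01 and none reached an unadjusted p under 0.05. Among all genes tested in microglia 48.1% were above 0 and 2.67% reached that p. Apoe, a lipid carrier induced in this state, was at 186, 469 and 3283 CPM against 92.9, 597 and 2956 CPM (0.05 ± 0.980), and Itgax, an integrin of the same state, at 12.2, 62.6 and 119.7 CPM against 3.38, 64 and 174 CPM (-0.25 ± 0.717). Errors differed widely within the list, from 0.172 for Tyrobp to 1.28 for Gpnmb on the log2 scale.

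The homeostatic genes of microglia varied less. The purinergic receptor gene P2ry12 was at 533, 783 and 846 CPM in P301S Cgas-/- and 401, 712 and 1225 CPM in P301S Cgas+/+ (-0.03 ± 0.224), and the lectin gene Siglech at 351, 615 and 861 CPM against 288, 517 and 939 CPM (0.07 ± 0.283). Of 14 such genes 7 had fold changes above 0, where 48.1% of all genes were, and the median was 0.02. Genes of other cells were present in microglial sums: 8 excitatory markers summed to 302, 445 and 630 CPM against 370.2, 529 and 875 CPM, and 8 choroid plexus markers to 53.9, 58.4 and 132 CPM against 47.4, 186 and 341 CPM.

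Genes of smallest p in microglia belonged to none of the immune lists. Rcan3, a regulator of calcineurin, was at 29.9, 48.7 and 58.2 CPM in P301S Cgas-/- and 20.3, 25.1 and 28.9 CPM in P301S Cgas+/+ (0.87 ± 0.192, edgeR, unadjusted p = 0.000114, adjusted p = 1.0). Tle1, a transcriptional corepressor, was at 22, 26.6 and 28.9 CPM against 33.7, 44.6 and 66.2 CPM (-0.85 ± 0.220, edgeR, adjusted p = 1.0). Neither gene overlapped between the groups, though both were picked for their small p among 9322 genes. Pcdh19, a protocadherin, was at 6.39, 8.35 and 11.6 CPM against 10.6, 17.8 and 31.4 CPM (-1.12 ± 0.284), and Hspa5, the chaperone BiP of the endoplasmic reticulum, at 16, 33.2 and 41.6 CPM against 40.1, 42.6 and 59.0 CPM (-0.61 ± 0.214).

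Inhibitory neurons held the smallest adjusted p of all classes. Cntn4, a contactin that guides axons and binds amyloid precursor protein, was at 1104, 1218 and 1515 CPM in P301S Cgas-/- and 614, 811 and 935 CPM in P301S Cgas+/+ (0.63 ± 0.119, edgeR, unadjusted p = 1.55e-05, adjusted p = 0.0996). Every P301S Cgas-/- library lay above every P301S Cgas+/+ library, though the gene was picked for its small p. Its fold change lay between 0.50 and 0.69 under all alternatives. In mice without the transgene Cntn4 was at 569.6 and 603 CPM in the 2 Cgas-/- libraries and 718, 856 and 1078 CPM in Cgas+/+. The difference between the deletion effects with and without the transgene was 1.17 ± 0.217 (edgeR interaction, adjusted p = 0.102).

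Cntn6, a paralogue of Cntn4, was at 218, 259.8 and 312 CPM in P301S Cgas-/- inhibitory neurons and 157, 187 and 197 CPM in P301S Cgas+/+ (0.44 ± 0.0943, edgeR, adjusted p = 0.229), with no overlap. Kcnip4, a calcium-binding partner of A-type potassium channels, was at 4094, 4449 and 5796 CPM against 2351, 3090.2 and 3738 CPM (0.55 ± 0.126, edgeR, adjusted p = 0.274), again with no overlap. Itgad, an integrin subunit at a low level, was at 0.589, 1.24 and 2.02 CPM against 2.06, 3.61 and 4.96 CPM (-1.71 ± 0.315, edgeR, adjusted p = 0.0996). Cntn6 is also one of the 8 subicular markers, which summed to 302, 364 and 405 CPM against 272, 284 and 378 CPM in inhibitory neurons. With the cortical share as a covariate the genes at an unadjusted p under 0.05 in inhibitory neurons fell from 5.88% to 3.13% of those tested. As said above, that fit does not tell the share and the deletion apart.

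Synapse genes and GABA receptor genes of inhibitory neurons lay mostly below 0. Gria1, an AMPA receptor subunit, was at 2438, 3148 and 3665 CPM in P301S Cgas-/- and 3598, 4282 and 5175 CPM in P301S Cgas+/+ (-0.54 ± 0.137, edgeR, adjusted p = 0.382), with 5 libraries below every P301S Cgas+/+ library. Gabra2, a GABA-A receptor subunit, was at 106, 120.2 and 155 CPM against 112, 162 and 294 CPM (-0.54 ± 0.194), and Nlgn1, a postsynaptic adhesion molecule of excitatory synapses, at 1314, 1667 and 2327 CPM against 1595, 2204 and 2669.5 CPM (-0.38 ± 0.154). Of 25 synapse scaffold and adhesion genes 4 had fold changes above 0 and 4 were lower at an unadjusted p under 0.05. Of 14 GABA receptor genes 2 were above 0 and 4 were lower at that p, and of 21 glutamate receptor genes tested 10 were above 0, with 1 higher and 4 lower. Of all genes tested in inhibitory neurons 2.44% were higher and 3.44% lower at that p, and 52.5% were above 0.

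The inhibitory genes that the study named, some as higher and some as lower, lay on both sides of 0, and none was called. Scn1a, the sodium channel of fast-spiking interneurons, had a fold change of -0.02 ± 0.0762, and the Kv3 channel genes Kcnc1 and Kcnc2 of -0.14 ± 0.119 and 0.11 ± 0.143. Gabbr2 was at -0.04 ± 0.14, Cacnb2 at -0.19 ± 0.111, Cacna1e at 0.13 ± 0.110 and Ryr3 at -0.14 ± 0.165. With Cgas lost, the study reported Scn1a, Kcnc1, Kcnc2 and Gabbr2 as higher and Cacnb2, Cacna1e and Ryr3 as lower. Of the 22 genes, chosen by the study on these samples, 4 (18.2%) were higher and 2 (9.09%) lower at an unadjusted p under 0.05, with a median of 0.08, where 2.44% of all genes were higher and 3.44% lower. The 4 were Kcnip2, a calcium-binding partner of A-type potassium channels (0.51 ± 0.209), Rasgef1b, an exchange factor of small GTPases (0.50 ± 0.205), Igsf3, an immunoglobulin superfamily gene (0.33 ± 0.135), and Kcnj9, a G protein-gated potassium channel gene (0.32 ± 0.152). The 2 lower were Camk4, a calcium and calmodulin-dependent kinase (-0.35 ± 0.164), and Epha6, an ephrin receptor (-0.27 ± 0.121), and the edgeR adjusted p of these 6 lay between 0.777 and 0.826. The genes that the study took as MEF2C targets in inhibitory neurons were picked on these libraries too, and it reported them in both directions. They had a median of -0.06 with 38.2% above 0, where 52.5% of all genes were. At that p 12 of them (9.76%) were higher and 27 (22%) lower, beside 2.44% and 3.44% of all genes.

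In astrocytes the reactive genes lay lower at the median without separating the groups. The 19 reactive genes summed to 593, 1094 and 2384 CPM in P301S Cgas-/- and 656, 1557 and 3009 CPM in P301S Cgas+/+, against 359, 437 and 541 CPM in Cgas+/+ mice without the transgene. Of 15 tested 1 had a fold change above 0 and the median was -0.53, where 50.5% of all genes were above 0. None of the next 3 reached an unadjusted p under 0.05: Gfap, the intermediate filament gene of reactive astrocytes, was at -0.71 ± 0.539, the protease inhibitor gene Serpina3n at -0.98 ± 0.770 and the complement gene C3 at -0.70 ± 1.03. The 1 gene of the list with an unadjusted p under 0.05 (4.84% of all genes) was Fbln5, an extracellular matrix gene, at 0.52 ± 0.248.

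Of 15 astrocyte transport genes 11 had fold changes above 0 (50.5% of all genes), and 2 were higher at an unadjusted p under 0.05, where 2.47% of all genes were. Aldh1l1, a folate enzyme that marks astrocytes, was at 194, 216 and 241 CPM in P301S Cgas-/- and 144, 187 and 199 CPM in P301S Cgas+/+ (0.28 ± 0.118, edgeR, adjusted p = 0.998). Kcnj10, the potassium channel Kir4.1 that clears extracellular potassium, was at 138, 149 and 167 CPM against 96, 122.7 and 180.3 CPM (0.27 ± 0.114). Greb1l, a coactivator of retinoic acid signalling, had the smallest p in astrocytes, at 6.84, 8.65 and 12 CPM against 11.9, 18.4 and 29.2 CPM (-1.17 ± 0.227, edgeR, adjusted p = 0.401). Megf11 was at 1.71, 3.51 and 5.03 CPM against 5.18, 9.76 and 15.5 CPM (-1.47 ± 0.354), with no overlap.

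Myelin genes of oligodendrocytes did not separate the groups. None of 15 reached an unadjusted p under 0.05, where 4.4% of all genes did. Of the 15, 10 had fold changes above 0, where 50.9% of all genes were. The median was 0.05, with Mbp, the myelin basic protein gene, at -0.05 ± 0.111. Their summed level was 14773, 17513 and 19258 CPM in P301S Cgas-/- and 15801, 16637 and 19570.1 CPM in P301S Cgas+/+. Chrna7, the alpha-7 nicotinic receptor gene, had the smallest p of the genes lower in oligodendrocytes, at 6.85, 9.58 and 14.4 CPM against 10.6, 17.0 and 25.9 CPM (-0.93 ± 0.223, edgeR, adjusted p = 1.0). The genes of reactive oligodendrocytes had a median of -0.06 over 10 tested, none at that p, and the heat shock and unfolded protein genes had medians of 0.05 here, 0.12 in microglia and 0.12 in astrocytes. In oligodendrocyte precursors Slc15a2, a peptide transporter, was at 6.16, 13.8 and 27.6 CPM against 18.8, 36.6 and 60.5 CPM (-1.38 ± 0.343, edgeR, adjusted p = 0.999).

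The few genes of the choroid plexus that were tested had medians below 0 in every class. Ttr, the transthyretin gene of choroid epithelium, was at 0, 3.41 and 39.5 CPM in P301S Cgas-/- microglia and 0, 54.5 and 180.3 CPM in P301S Cgas+/+ microglia (-2.75 ± 1.22), at 1.52, 3.04 and 15.7 CPM against 1.13, 24.2 and 91.3 CPM in astrocytes (-2.72 ± 1.21) and at 0.195, 0.954 and 7.68 CPM against 0, 10.8 and 59.8 CPM in inhibitory neurons (-3.21 ± 1.47). Within cortical nuclei Htr2c, a serotonin receptor of both choroid epithelium and neurons, was at 39.8, 68.3 and 107 CPM against 51.0, 247 and 341 CPM (-1.63 ± 0.507). Few genes of the list of 10 passed the expression filter. Their median was -1.37 over 3 genes in microglia, -1.82 over 5 in astrocytes, -1.29 over 5 in oligodendrocytes and -1.11 over 3 in oligodendrocyte precursors, with none above 0 in these classes, where 48.1% to 50.9% of all genes were above 0. At an unadjusted p under 0.05 were 2 of the 3 in microglia (2.67% of all genes), 2 of the 5 in astrocytes (4.84%), 3 of the 5 in oligodendrocytes (4.4%) and 2 of the 3 in oligodendrocyte precursors (3.98%). In neurons the median was -0.42 over 4 genes in inhibitory neurons, -0.75 over 4 in dentate granule and -0.22 over 4 in CA1 nuclei, with 1, 0 and 1 at that p. The share of choroid plexus-like nuclei given above had the lower median in the same group, and its part in these values was not tested.

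Genes induced by neuronal activity lay above 0 at the median in every neuron class tested, and single libraries stood apart for them. The medians of the list were 0.44 in dentate granule nuclei, 0.39 in CA1, 0.34 in cortical nuclei, 0.25 in inhibitory neurons and 0.68 in all excitatory nuclei. Above 0 were 13 of 20 genes in dentate granule nuclei (50.5% of all genes), 14 of 20 in CA1 (51.7%), 17 of 22 in cortical nuclei (52.9%), 13 of 17 in inhibitory neurons (52.5%) and 19 of 22 in all excitatory nuclei (49.1%). The 22 genes summed to 216, 278 and 1124 CPM in P301S Cgas-/- dentate granule nuclei and 226, 240.1 and 1149 CPM in P301S Cgas+/+, where the highest libraries were P301S Cgas-/- replicate 2 and P301S Cgas+/+ replicate 1. In CA1 they summed to 411, 604 and 1167 CPM against 556, 581 and 845 CPM, the highest being P301S Cgas-/- replicate 3 and P301S Cgas+/+ replicate 1, which was also the highest of its group in all excitatory nuclei (969 CPM). The part of these libraries in the medians was not tested. Egr1, an immediate early transcription factor, was at 1.23, 4.91 and 42.6 CPM in P301S Cgas-/- dentate granule nuclei and 0.932, 1.17 and 8.15 CPM in P301S Cgas+/+ (1.75 ± 0.631, edgeR, adjusted p = 1.0). In the hippocampal subfields summed it was at 2.44, 14.3 and 34.4 CPM against 2.98, 4.47 and 11.3 CPM (1.37 ± 0.485), with 3 P301S Cgas-/- libraries above and 1 below every P301S Cgas+/+ library. Junb, another immediate early gene, was at 5.71, 20.9 and 66.8 CPM against 3.34, 10.5 and 23.1 CPM in cortical nuclei (1.42 ± 0.60) and at 0.920, 6.38 and 18.2 CPM against 0.496, 2.98 and 4.12 CPM in inhibitory neurons (1.55 ± 0.597).

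None of these genes was called. At an unadjusted p under 0.05, 1 of the 20 activity genes tested was higher in dentate granule nuclei (1.62% of all genes), 0 of 20 in CA1 (1.16%), 2 of 22 in cortical nuclei (2.64%) and 4 of 17 in inhibitory neurons (2.44%). Bdnf, a growth factor that is itself induced by activity, had a fold change of -0.49 ± 0.159 in all excitatory nuclei. The same list was also above 0 in oligodendrocytes, a class that is no neuron, at a median of 0.32 with 7 of 17 tested higher at that p, where 2.41% of all genes were.

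**Figure D5:**
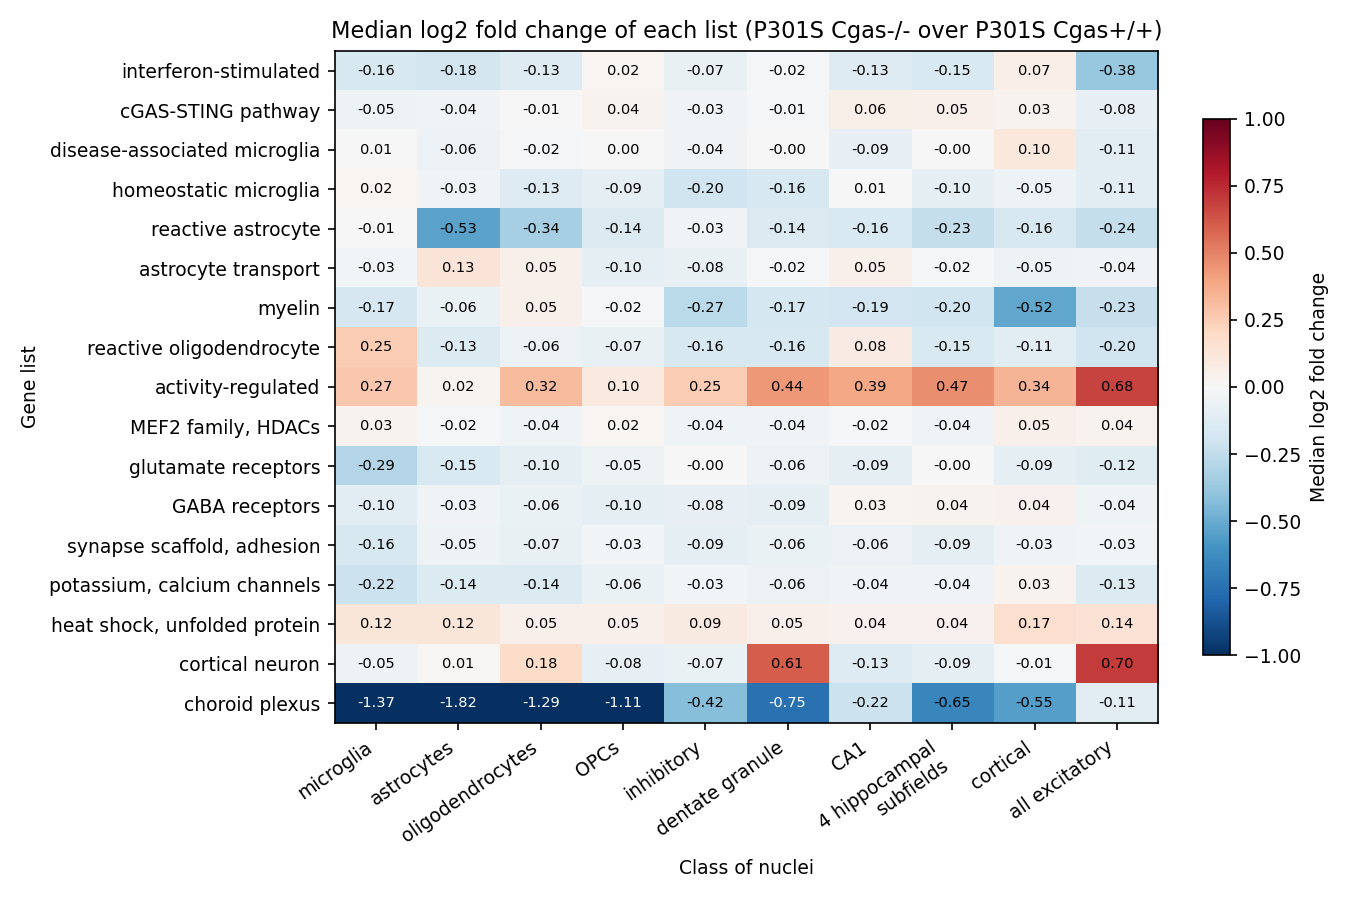
Median log2 fold change, P301S Cgas-/- over P301S Cgas+/+, of 17 gene lists (rows) in the 10 classes (columns), printed in each cell and coloured from blue below 0 to red above 0, with the darkest colours standing for values past 1 on either side. The activity-regulated genes lie above 0 in every class shown, the cortical neuron genes stand at 0.70 in all excitatory nuclei and 0.61 in dentate granule nuclei, and the choroid plexus genes lie below 0 in every class.

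Within cortical nuclei Nefl, the light neurofilament gene, was at 4.79, 10.8 and 27 CPM in P301S Cgas-/- and 1.66, 3.92 and 5.91 CPM in P301S Cgas+/+ (1.54 ± 0.354, edgeR, adjusted p = 0.718). Anxa4, an annexin that binds membranes, was at 6.64, 7.60 and 13.8 CPM against 1.61, 3.53 and 5.91 CPM (1.25 ± 0.308), with no overlap. Nrxn3, a presynaptic adhesion gene, was at 4623, 5642 and 6019.8 CPM against 3061, 4376 and 5130.3 CPM (0.36 ± 0.139), and Grin3a, an NMDA receptor subunit, at 30.5, 52.2 and 95 CPM against 57.9, 107 and 147 CPM (-1.0 ± 0.356). P301S Cgas+/+ libraries held as few as 71 cortical nuclei, and which cortical layers or areas a library held was not matched between groups.

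Genes beside Cgas on chromosome 9 were read separately, since a mouse bred from a targeted line can carry the donor chromosome around the target. None of the genes within 5 Mb was called in any class. In cortical nuclei 9 of 48 such genes (18.8%) had an unadjusted p under 0.05 where 5.9% of all genes did, in astrocytes 5 of 43 (11.6%) against 4.84%, and in inhibitory neurons 3 of 44 (6.82%) against 5.88%. The count was 1 of 27 (3.7%) in microglia against 2.67%, 2 of 37 (5.41%) in oligodendrocytes against 4.4% and 1 of 32 (3.125%) in their precursors against 3.98%. It was 3 of 40 (7.5%) in dentate granule nuclei against 3.25%, 1 of 43 (2.33%) in CA1 against 1.98%, 3 of 51 (5.88%) in hippocampal nuclei against 3.64% and 11 of 66 (16.7%) in all excitatory nuclei against 13.5%. In cortical nuclei Elovl5, a fatty acid elongase gene at 77917364 to 77984519 (GRCm38), 0.446 Mb from Cgas, had the smallest p of all 13871 genes, at 16.6, 18.9 and 26.1 CPM in P301S Cgas-/- and 25.9, 31.6 and 42.7 CPM in P301S Cgas+/+ (-0.74 ± 0.151, edgeR, unadjusted p = 5.31e-05, adjusted p = 0.718). Htr1b, a serotonin receptor gene 3.19 Mb away at 81628291 to 81633828, was at 1.40, 1.81 and 3.33 CPM against 1.54, 4.74 and 10.5 CPM there (-1.34 ± 0.335). Bmp5, a secreted growth factor gene 2.53 Mb away at 75775364 to 75900310, had a fold change of -1.78 ± 0.425 in inhibitory neurons (edgeR, adjusted p = 0.382).

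The effect of the deletion was also compared between males and females, 3 of each per group. The 3 P301S Cgas+/+ females, replicates 3 to 5, had the lowest cortical shares of the 12 libraries given above, and replicate 3 was the library with 49.3% of its nuclei unnamed. In both groups replicates 1 and 2, both male, were counted with the older software, and every female library with the newer. The parts of this makeup and of the software version in the calls by sex were not tested. In microglia 1 of 9613 genes (0.0104%) differed, the long non-coding transcript 2610035D17Rik. It was at 132, 132 and 183 CPM in P301S Cgas-/- females but 25.7, 35.7 and 39.9 CPM in P301S Cgas-/- males. In P301S Cgas+/+ it was at 14.2, 15.9 and 33.9 CPM in females and 64.3, 88.0 and 105.9 CPM in males. The sexes thus stood in opposite order in the 2 groups (difference of fold changes, males minus females, -4.24 ± 0.437, edgeR, adjusted p = 0.000381).

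In oligodendrocyte precursors 2 of 8932 genes (0.0224%) differed by sex. Cdo1, a cysteine dioxygenase, was at 125, 130.3 and 146 CPM in P301S Cgas-/- females and 87.3, 105.1 and 109.6 CPM in P301S Cgas-/- males, against 54.4, 77.9 and 81.2 CPM and 119, 137 and 151 CPM in P301S Cgas+/+ (-1.31 ± 0.234, edgeR, adjusted p = 0.0278). Mgat4c, a glycosyltransferase, had the same order (-1.79 ± 0.298, edgeR, adjusted p = 0.0278). In the other 8 classes edgeR called none with the filter on low counts. DESeq2 called 102 genes in astrocytes, 151 in cortical nuclei, 257 in all excitatory nuclei, 34 in oligodendrocytes and 2 each in hippocampal nuclei and inhibitory neurons. Without the filter edgeR called 63, 43, 32, 29, 0 and 80 in these 6, and 244 in microglia. Genes at an unadjusted p under 0.05 made up 8.33% in microglia, 10.4% in astrocytes, 7.46% in oligodendrocytes, 4.37% in their precursors and 3.67% in inhibitory neurons, and 4.98% in dentate granule, 4.68% in CA1, 3.64% in hippocampal, 9.08% in cortical and 8.58% in all excitatory nuclei.

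The deletion effect in tau mice was set against that in mice without the transgene, where the Cgas-/- group held only 2 males, both counted with the older software. These 2 libraries held 39 and 191 cortical-like nuclei, 1.62% and 7.29% of their excitatory nuclei, against 22.6% to 45.4% in P301S Cgas-/-, and 48.0% and 48.9% were dentate granule-like. The part of this makeup in the calls that follow was not tested. In cortical nuclei 3 of 14375 genes (0.0209%) differed. Grk5, a kinase of G protein-coupled receptors, was at 29.4, 37.3 and 45.6 CPM in P301S Cgas-/- and 42.7, 60.1 and 125 CPM in P301S Cgas+/+, while without the transgene the 2 Cgas-/- libraries stood at 91.4 and 112 CPM and Cgas+/+ at 29.0, 40 and 51.8 CPM (difference -2.11 ± 0.336, edgeR, adjusted p = 0.0203). Pid1, a gene of insulin signalling, and Adamtsl3, a matrix gene, differed in the same direction (-1.69 ± 0.294 and -3.79 ± 0.692, edgeR, adjusted p = 0.0365 and 0.0434).

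In all excitatory nuclei 36 of 17824 genes (0.202%) differed by transgene, 28 with a more positive deletion effect in tau mice and 8 with a more negative one. The count depended on the tool and filter: edgeR without the filter on low counts called 3 genes, and DESeq2 889. In cortical nuclei the same alternatives called 4 and 47. Tmem196 was at 14.6, 20.4 and 31.9 CPM in P301S Cgas-/- and 7.33, 11.2 and 18.3 CPM in P301S Cgas+/+, against 4.91 and 6.17 CPM in the 2 Cgas-/- libraries and 10.9, 12.3 and 17.3 CPM in Cgas+/+ (2.28 ± 0.356, edgeR, adjusted p = 0.0243). No gene was called in dentate granule, CA1 or hippocampal nuclei, where 1.77%, 1.69% and 1.54% of genes had an unadjusted p under 0.05, nor in microglia, astrocytes, oligodendrocytes, their precursors or inhibitory neurons, where the share was 3.22%, 4.56%, 4.27%, 3.33% and 7.38%. It was 6.33% in cortical and 18.8% in all excitatory nuclei.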

How the data were processed

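Single-nucleus RNA was measured in 27 libraries, 1 mouse each. The deposited files hold UMI counts per gene and barcode (31053 genes), which the authors made with Cell Ranger 3.1.0 on mm10 per the labels (Seurat 3.0 is named too), while the file headers give version 3.0.2 in 12 libraries and 3.1.0 in 15. Reads on unspliced transcripts were included per the study's methods, and how multimapped reads were treated is not given in the sources used here.

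The study's limits of 200 to 4000 genes and 5% mitochondrial UMIs per nucleus were applied, and likely doublets were removed at 0.8% per 1000 barcodes. Nuclei were clustered in scanpy 1.11.5 (2000 variable genes, 30 components, 15 neighbours, resolution 1, and 2 within excitatory nuclei). To be named, a cluster needed 3 markers of a class, each in at least 10% of its nuclei at a log2 fold above 0.5. It still stayed unnamed where a second class scored too near the first, or where few markers were found and none led. Clusters also stayed unnamed where another class held more of the leading genes, or where a shallow cluster had no leading marker. The same held where over 60% of a cluster came from 1 library. These limits were revised after cluster names, but no group difference, had been seen. Of 39 clusters 3 stayed unnamed, and of 53 excitatory clusters 17.

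UMIs were summed per library and class, where a class needed 20 nuclei in 5 libraries of each group. edgeR 4.0.16 (R 4.3.3, TMM, filterByExpr, quasi-likelihood) was fitted to 23 mice of 4 groups with sex as a covariate. The sex interaction used the 12 libraries and the transgene interaction all 27. limma 3.58.1 tested CA1 minus dentate granule values, and exact two-sided permutation tests over 924 splits (smallest possible p 0.00216) tested log2(CPM + 1) and shares. Alternatives to the gene tests numbered 21, DESeq2 1.42.0 among them, and scripts were tested on simulated data. Gene positions come from GENCODE vM21 (30934 identifiers matched).

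The libraries, the 23 gene lists and the tests were chosen with earlier results of these data known. Genes were named by rule: those the study is about; in each class called genes or, failing these, the 2 of smallest p a direction; up to 2 a direction of each list at an unadjusted p under 0.05; the 3 of smallest p within 5 Mb of Cgas; and called interaction genes, up to 3 a direction. List members quoted beyond that rule (Ifit2, Bst2, Tbk1, Irf3, Gfap, Serpina3n, C3, Mbp, Kcnip2, Rasgef1b, Igsf3, Kcnj9, Camk4, Epha6) were picked after their values were seen, and some genes the rule names are not reported here. The SEs given come from the edgeR and limma fits to values per mouse, and depth limits rare classes most.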

Additional observations from a re-analysis of the deposited data

Results flagged for a closer look

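The effect of losing Cgas differed between sexes for 3 genes by an edgeR interaction test over 12 mice: 2610035D17Rik in microglia (difference of log2 fold changes -4.24), and Cdo1 (-1.31) and Mgat4c (-1.79) in oligodendrocyte precursors. Among these mice only males had libraries counted with the older software. The effect of losing Cgas differed between mice with and without the transgene for Grk5 (-2.11), Pid1 (-1.69) and Adamtsl3 (-3.79) in cortical nuclei. In all excitatory nuclei it so differed for Tmem196 (2.28), Mtus1 (2.49), Cthrc1 (2.97), Iqsec2 (-1.04), D430019H16Rik (-1.61) and Fanci (-1.83), which stand for 36 called genes, and the group without Cgas and without the transgene held 2 libraries.

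Single libraries stood apart from the other 5 of their group by Dixon's ratio in 15 of 92 sets of values, where chance flags about 1 in 20. P301S Cgas+/+ replicate 5 had the most ependymal-like (2.06%) and striatal-like (3.53%) nuclei and CA3-like nuclei at 16.7% of its excitatory nuclei. P301S Cgas+/+ replicate 3 had 49.3% of its nuclei unnamed, and P301S Cgas-/- replicate 5 had CA2-like nuclei at 1.04% of its excitatory nuclei. P301S Cgas-/- replicate 2 stood apart for Mef2c in dentate granule nuclei (978 CPM) and hippocampal nuclei (366 CPM), and for the summed activity-regulated genes (1124 CPM) and cortical neuron genes (2058 CPM) in dentate granule nuclei.

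P301S Cgas+/+ replicate 1 stood apart for the summed activity-regulated genes in dentate granule (1149 CPM), CA1 (845 CPM), hippocampal (811 CPM) and all excitatory nuclei (969 CPM), and for the summed cortical neuron genes in dentate granule nuclei (1092 CPM). P301S Cgas-/- replicate 3 stood apart for the activity-regulated genes in CA1 (1167 CPM). No cause of these values was tested.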

How the results depend on the processing

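No paired analysis was possible because replicate numbers only follow the order of deposit. Of the main results recomputed under each alternative, 872 values were labelled as unchanged, 41 turned direction and 29 counts moved by over 1.5 times. The unchanged values include counts of called genes, which have no direction, many of them with no gene called under either setting. They also include exact tests on the older-software libraries alone, where 2 libraries a group are too few for any p to pass the threshold. The 872 are therefore no measure of how stable the results are. No result of a single gene passed or lost the threshold in the main comparison with edgeR under the settings of normalization, sex, software version or cortical share. The counts of called genes moved with the tool and the filter. For the deletion contrast DESeq2 called 1 gene in astrocytes, 86 in all excitatory nuclei and 9 in inhibitory neurons, and edgeR without a filter on low counts called 7 in inhibitory neurons, 21 in microglia and 1 in oligodendrocyte precursors. For the sex interaction DESeq2 called 102 genes in astrocytes, 151 in cortical nuclei, 257 in all excitatory nuclei, 2 in hippocampal nuclei, 2 in inhibitory neurons, 14 in microglia and 34 in oligodendrocytes, and edgeR without the filter called 63 in astrocytes, 43 in cortical nuclei, 32 in all excitatory nuclei, 80 in inhibitory neurons, 244 in microglia, 29 in oligodendrocytes and 26 in oligodendrocyte precursors. For the transgene interaction DESeq2 called 4 genes in astrocytes, 47 in cortical nuclei, 889 in all excitatory nuclei and 17 in inhibitory neurons, and edgeR without the filter 3 in all excitatory nuclei, 8 in inhibitory neurons and 40 in microglia. The cause of these differences was not tested.

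No value that turned direction had passed an adjusted threshold (smallest adjusted p 0.258), though some lay far from 0. Using the 8 libraries of the newer software alone, the log2 difference of Mef2c was 0.22 in CA1, -0.044 in cortical (0.50 with all 12) and -0.033 in dentate granule nuclei, and using the 4 of the older alone that of Tmem173 in microglia was 0.042. The older-software libraries alone kept the direction of Mef2c in cortical nuclei, at 1.59 (exact two-sided permutation test p = 0.333, 2 libraries a group). The edgeR fold change of Mef2c was 0.17 in CA1 with nuclei over 4000 genes kept, and -0.018 in dentate granule nuclei with the cortical share as a covariate. Among shares, the older-software libraries alone gave differences of -1.51 points for astrocytes (1.27 with all 12), -0.429 for inhibitory neurons (0.719), -0.0489 for mural cells, 0.393 for striatal-like (-0.841) and 0.0125 for dentate granule-like nuclei (-16.1). With doublets kept the differences were -0.00462 points for Cajal-Retzius-like cells, 0.0044 for committed precursors, -0.0330 for fibroblasts and 0.0504 for subicular nuclei. As shares of named nuclei they were -0.0195 for Cajal-Retzius-like cells, -0.493 for oligodendrocytes (2.63 of all kept nuclei) and 0.220 for subicular nuclei, which were also at 0.588 with nuclei over 4000 genes kept and at 0.40 in the newer-software libraries. The cortical share itself differed by 23.3 points within the newer-software libraries (exact p = 0.0286) and by 8.41 points within the older ones (exact p = 0.667, with 2 libraries a group).

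Leaving out 1 library at a time, Mef2c ranged from -0.51 to 0.18 in CA1 and from -0.10 to 0.24 in dentate granule nuclei by level, and from -0.78 to 0.21 and from -0.12 to 0.21 by edgeR, turning without P301S Cgas+/+ replicate 1 in CA1 and without P301S Cgas-/- replicate 2 in dentate granule nuclei. Tmem173 ranged from -0.19 to 0.11. Called genes ranged from 0 to 2 in astrocytes (2 without P301S Cgas+/+ replicate 3) and from 0 to 3 in inhibitory neurons (3 without P301S Cgas+/+ replicate 2). Share differences ranged from -0.0732 to 2.46 points for astrocytes, -0.0644 to 0.0759 for Cajal-Retzius-like cells, -0.0614 to 0.0182 for committed precursors, -0.104 to 1.39 for inhibitory neurons, -0.551 to 0.0219 for oligodendrocyte precursors and -0.542 to 0.537 for subicular nuclei. Low nuclei counts limit CA2, CA3 and, in some libraries, dentate granule and cortical sums.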
